A study of Homo sapiens with 9 samples.

Results

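A set of 9 genes that mark megakaryocytes, platelets or the leukaemia driven by ETO2-GLIS2 was followed in U937 cells, a human line of immature monocytic cells, before and after a fusion protein was switched on. They were chosen by name, and each name matched 1 Ensembl identifier among the 60623 genes listed, so the set is 9 of 60623 genes. They are NCAM1 and FOLR1, the platelet receptor genes ITGA2B, ITGB3, GP1BB and GP9, and PF4, VWF and THBS1, whose proteins are stored in platelet granules. The question was whether any of these markers appeared in the monocytic background at 12 or 48 h, and in which line.

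RNA was sequenced from 3 stable U937 lines at 0, 12 and 48 h of treatment with 5 µg/ml doxycycline, which turns on the integrated Tet3G construct. The CTR line (genotype WT in the labels) carried the empty vector, the AE line carried AML1-ETO and the EG line carried ETO2-GLIS2, each fusion with an HA tag at its N-terminus. The constructs were brought in by retrovirus with a pRetrox-Tet3G vector and puromycin selection, and the lines were grown from single clones, so a difference between lines cannot be told apart from a difference between clones. Each of the 9 conditions had 1 library, so no difference has a replicate check, and no p-value is given.

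AML1-ETO joins the DNA-binding part of RUNX1 to most of the corepressor ETO, whereas ETO2-GLIS2 joins the corepressor ETO2, encoded by CBFA2T3, to the zinc fingers of GLIS2. ETO2-GLIS2 is the fusion of an acute megakaryoblastic leukaemia of young children, whose blasts typically carry CD56 (encoded by NCAM1), folate receptor alpha (encoded by FOLR1) and often the platelet integrin chain CD41 (encoded by ITGA2B). Megakaryocytes are the marrow cells that shed platelets. They assemble receptors for fibrinogen and von Willebrand factor on their surface and pack adhesive proteins and chemokines into alpha granules.

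Levels are given as FPKM, read counts corrected for the exon length of a gene and for sequencing depth, as deposited. The reads behind each value were recovered from the FPKM steps as the smallest whole numbers that fit. The totals ranged from 15136402 to 18443645 reads on genes. A gene is called over the floor when more than 3 reads lay on it, the limit that a count of 0 allows. Ratios carry exact 95% Clopper-Pearson intervals made from the reads, which cover counting error only. The transcripts of the constructs moved with the labels: RUNX1T1, which encodes ETO, went from 0.512 to 22.2 and 28.7 FPKM in the AE line and stayed at or below 0.024 FPKM in the others, and CBFA2T3 went from 4.1 to 11.4 and 12.6 FPKM in the EG line. The monocytic label was met in every library: 11 or 12 of 13 monocytic markers were over the floor, among them CD33, LYZ and SPI1, while CD14, a marker of mature monocytes, had at most 0.0802 FPKM. In bulk RNA, fewer cells with a transcript and less transcript per cell cannot be told apart.

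Of the 9 markers, NCAM1 alone was well measured in every library, THBS1 became measurable in the AE line, ITGA2B, VWF and ITGB3 stayed at single reads to 10 reads a library, and FOLR1, GP9, PF4 and GP1BB were listed at 0 in all 9 libraries. The number of markers over the floor of 3 reads at 0, 12 and 48 h was 2, 2 and 3 in the CTR line, 2, 4 and 3 in the AE line, and 4, 2 and 4 in the EG line. Among all genes, between 26.8% and 29.3% were over this floor in each library. The count went up and down by weak markers, and by the recovered reads the largest count of 4 was reached in the uninduced EG library as well as in the induced AE library at 12 h and EG library at 48 h.

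NCAM1 (ENSG00000149294, chr11:112961420-113278436, GRCh38.p14, RefSeq) encodes the neural cell adhesion molecule, known as CD56 on natural killer cells and on some leukaemic blasts. It was highest in the line without a fusion protein. The CTR line had 1.58, 2.09 and 2.03 FPKM at 0, 12 and 48 h, from 327, 403 and 398 reads. In the AE line it had 0.44, 0.59 and 0.924 FPKM, from 93, 116 and 179 reads. In the EG line it had 0.153, 0.202 and 0.331 FPKM, from 36, 46 and 69 reads. The 3 lines did not overlap: every CTR value was above every AE value, and every AE value above every EG value, at all time points and already before doxycycline. The 3 time points of a line come from 1 clone and are not replicates. The share of all genes that separate the lines in this way was not computed. In the CTR line between 52.3% and 54.5% of the genes above 0 had a lower FPKM than NCAM1, against 35.9% to 44.6% in the AE line and 22.2% to 29.3% in the EG line.

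Before induction the AE line held 0.279 times the NCAM1 reads of the CTR line per library total (interval 0.219 to 0.352), and the EG line held 0.0971 times (0.0668 to 0.137). On the log2(FPKM + 0.01) scale these differences were -1.82 and -3.28. The AE library at 0 h already held 115 reads of RUNX1T1 (0.512 FPKM), against 0 in the CTR library. In the EG library at 0 h the genes of its construct were not higher than in the CTR library. CBFA2T3 had 4.1 against 4.75 FPKM and GLIS2 2.39 against 4.76 FPKM, values that include the cells' own transcripts. The paper names leaky expression as likely, on CD11b in uninduced cells given PMA. The part of any fusion transcript before doxycycline in the NCAM1 values was not tested. With at least 20 reads over both libraries, 2.26% of 13689 genes were more than 2-fold lower in the AE line than in the CTR line at 0 h, and 3.82% of 13592 genes in the EG line. NCAM1 was among them in both, and 0.373% and 0.103% of the genes tested lay lower still. At 48 h it was still 0.455 times the CTR value in the AE line (0.379 to 0.544) and 0.163 times in the EG line (0.124 to 0.211). The background of genes more than 2-fold lower was then 12.1% in the AE line and 2.69% in the EG line. The EG line thus began and ended with the least NCAM1 transcript of the 3 clones.

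Within each line, NCAM1 was higher after doxycycline, and the line without a fusion moved as well. At 12 h the ratio to 0 h was 1.32 in the CTR line (1.14 to 1.54), 1.34 in the AE line (1.01 to 1.78) and 1.32 in the EG line (0.833 to 2.1). These 3 ratios were nearly the same. At 48 h the ratio was 1.29 in the CTR line (1.11 to 1.49), 2.1 in the AE line (1.62 to 2.72) and 2.16 in the EG line (1.42 to 3.33). Both fusion lines thus stood just past 2-fold with intervals that reach below it, and the CTR line stayed short of it. From 12 to 48 h the ratio was 0.971 in the CTR line (0.843 to 1.12), 1.57 in the AE line (1.23 to 1.99) and 1.64 in the EG line (1.11 to 2.44). With the change of the CTR line subtracted, the log2 change at 48 h was 0.69 in the AE line and 0.70 in the EG line, both under 2-fold. Taken against the CTR library at 0 h instead of the line's own, NCAM1 at 48 h was lower, by -0.77 and -2.22 on the log2 scale.

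The rule of a 2-fold change with a mean of at least 1 FPKM over both libraries could be applied to no marker but NCAM1 in the CTR line, where it made no call at either time. Its background was 5.64% of genes higher and 1.88% lower at 12 h, and 8% higher and 2.99% lower at 48 h. In the AE line 6.57% of genes were called higher and 2.39% lower at 12 h, and 17.3% higher and 11.3% lower at 48 h, with 0 markers tested. In the EG line the shares were 3.03% higher and 1.46% lower at 12 h, and 10.8% higher and 2.54% lower at 48 h, again with 0 markers tested. With at least 20 reads over both libraries in place of the FPKM limit, the AE line called THBS1 higher at 12 h, beside 8.22% of 14067 genes. At 48 h it called NCAM1 and THBS1, beside 19.8% of 14326 genes. The EG line called NCAM1 higher at 48 h, beside 14.3% of 14077 genes, and no marker at 12 h, where 5% of genes were called. The CTR line called none, beside 7.88% at 12 h and 9.91% at 48 h. The NCAM1 change at 48 h was larger than that of 81.6% of genes in the AE line, 87% in the EG line and 63.8% in the CTR line. The median log2 change of all genes with a mean of at least 1 FPKM at 48 h was itself 0.16, 0.22 and 0.16 in the CTR, AE and EG lines, and after rescaling the libraries by their median ratio NCAM1 stood at 0.22, 0.89 and 0.91.

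**Figure D1:**
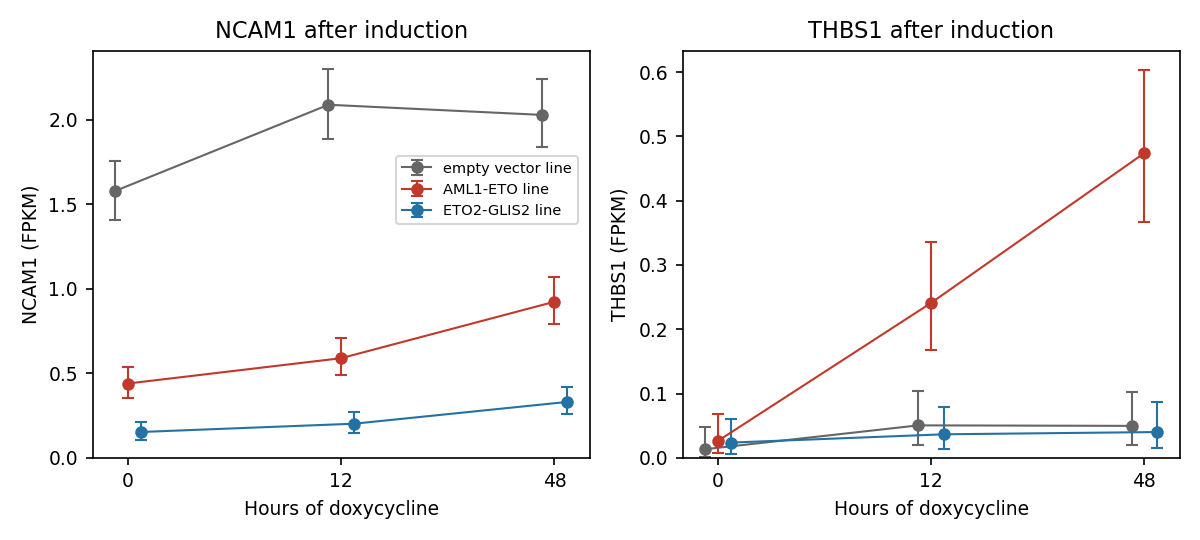
FPKM of NCAM1 (left) and THBS1 (right) against hours of doxycycline (times evenly spaced, not to scale) in the 3 lines, 1 library per point, with 95% counting intervals as bars. NCAM1 lay between 1.58 and 2.09 FPKM in the CTR (empty vector) line and stayed below 1 FPKM in both fusion lines, whereas THBS1 reached 0.474 FPKM in the AML1-ETO line and at most 0.0505 FPKM elsewhere.

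The 3 genes below followed NCAM1 most closely over the 9 libraries, out of 11820 genes with a mean of at least 1 FPKM. They were METTL22, a methyltransferase gene (Pearson r = 0.955 on the log2 scale), CCDC9 (r = 0.947) and ITPKB, an inositol trisphosphate kinase gene (r = 0.941). The points share their lines and libraries, and these values are a description. METTL22 ranged from 1.86 FPKM in the EG line at 0 h to 3.78 FPKM in the CTR line at 12 h, a much narrower range than that of NCAM1. NCAM1 is also a natural killer cell marker, and of the 7 other genes of that list 2 or 3 were over the floor in each library, with a summed level of 64.9 to 92.3 FPKM in the CTR line, 13.7 to 65.4 FPKM in the AE line and 74 to 86.3 FPKM in the EG line. Most of this was NKG7, a granule membrane protein of cytotoxic cells, and the natural killer receptors KLRD1 and KLRC1 were at 0 in all 9 libraries. KLRF1, another natural killer receptor gene, was measured in all 9 libraries, at 1.96 to 4.43 FPKM. It had 1.96, 2.98 and 4.17 FPKM in the AE line and was called higher there at 48 h, beside 17.3% of all genes. NKG7 stood at 63.4, 56.5 and 9.42 FPKM in the AE line, while NCAM1 was higher there at each later time. Exons of antisense genes overlap 7.89% of the NCAM1 exon bases, and reads from the antisense strand cannot be told apart because the library kit did not mark strand.

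FOLR1 (ENSG00000110195, chr11:72189709-72196323) encodes folate receptor alpha, a cell surface protein used to recognise ETO2-GLIS2 blasts. It was listed at 0 in all 9 libraries. With the gene's annotated exon length, 3 reads would correspond to 0.102 to 0.124 FPKM, so FOLR1 was not detectable above about that level in any line, at 0, 12 or 48 h. Its exons share no bases with another gene. The neighbouring FOLR2, a folate receptor gene of macrophages, had 0 to 0.391 FPKM, and FOLR3 was at 0 throughout.

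Among the platelet receptors, ITGA2B (ENSG00000005961, chr17:44372181-44389649) encodes the alpha chain of the fibrinogen receptor. It had 0.0648, 0.0116 and 0.0684 FPKM in the CTR line, from 6, 1 and 6 reads. It had 0.0212, 0.102 and 0.0923 FPKM in the AE line, from 2, 9 and 8 reads. In the EG line it had 0.0762, 0.0295 and 0.107 FPKM, from 8, 3 and 10 reads. The 3 lines overlapped, and the highest value, in the EG line at 48 h, came from 10 reads. The ratio of 48 h to 0 h was 1.06 in the CTR line (0.283 to 3.95), 4.36 in the AE line (0.87 to 42.1) and 1.41 in the EG line (0.501 to 4.11), all with 1 inside the interval. At 12 h the AE ratio was 4.83 (1 to 46) and the EG ratio 0.387 (0.0661 to 1.61). The CTR and EG intervals at 48 h reach to both sides of 1, whereas the AE intervals lie mostly above 1. Against the CTR library of the same time, the AE line held 8.83 times the ITGA2B reads at 12 h (1.22 to 387), from 9 reads against 1. At 48 h it held 1.35 times (0.41 to 4.72). With at most 10 reads a library, the data set no narrow limit on a change.

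ITGB3 (ENSG00000259207, chr17:47253827-47313743) encodes the beta chain that pairs with the ITGA2B product. It had 0, 0 and 1 read in the CTR line, 0, 1 and 2 reads in the AE line, and 0, 1 and 3 reads in the EG line. By these reads no library was over the floor, and the highest level was 0.0417 FPKM, in the EG line at 48 h. The reads are uncertain, because they imply 4394 exon bases where the annotation has 6829. At the annotated length the AE and EG libraries at 48 h would hold 3.11 and 4.66 reads, which are not whole numbers and lie over the floor. In all 3 lines the 0 h library held no read and the 48 h library held the most, 6 reads in the 3 libraries at 48 h, the CTR line included. No ratio is given because all recovered reads were at or below 3. An annotated gene on the same strand, itself at 0, shares 33.2% of the ITGB3 exon bases, and reads that fall on both would not be counted for either by default, so the level may be understated.

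**Figure D2:**
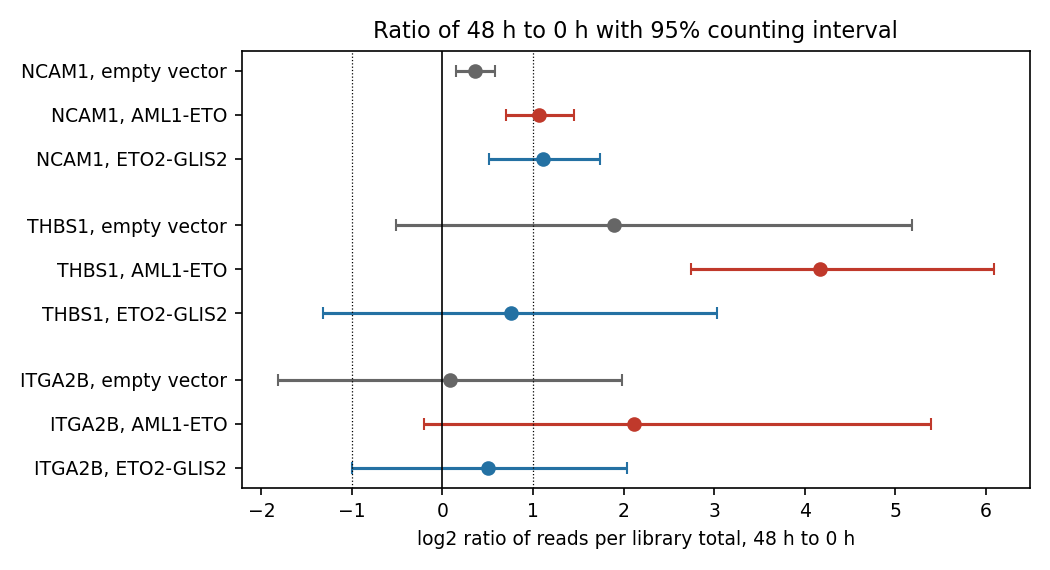
Log2 ratio of reads per library total, 48 h to 0 h, for the 3 markers over the floor in every line at 48 h, with exact 95% counting intervals; the solid line is no difference and the dotted lines are 2-fold. The THBS1 interval of the AML1-ETO line (2.74 to 6.09) lies wholly past 2-fold, and all 3 ITGA2B intervals include 0.

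GP1BB (ENSG00000203618, chr22:19723539-19724771) and GP9 (ENSG00000169704, chr3:129054845-129062406) encode parts of the receptor for von Willebrand factor, together with GP1BA and GP5. Both were listed at 0 in all 9 libraries. For GP9, whose exons share no bases with another gene, 3 reads would be 0.185 to 0.226 FPKM. For GP1BB a 0 carries no such limit: 100% of its exon bases lie in exons of SEPTIN5 and of a readthrough gene on the same strand, and default counting sets such reads aside. Of 280 protein-coding genes covered completely in this way, 263 (93.9%) were listed at 0 in all 9 libraries, against 3731 (22.6%) of 16516 genes with no such overlap. GP1BA, the ligand-binding chain of the same receptor, was measured, at 1.12, 2.05 and 1.47 FPKM in the CTR line, 1.3, 2.19 and 2.27 FPKM in the AE line, and 0.992, 1.11 and 1.53 FPKM in the EG line. No line moved GP1BA past 2-fold at 48 h. GP5 had at most 0.0346 FPKM.

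Of the 3 granule protein genes, PF4 (ENSG00000163737, chr4:73980811-73982124), a chemokine made almost only by megakaryocytes, was listed at 0 in all 9 libraries, where 3 reads would be 0.166 to 0.203 FPKM. A gene that the files do not list overlaps 52.1% of its exon bases in the annotation used for the check, and whether the counting was affected is unknown. VWF (ENSG00000110799, chr12:5948877-6124670) encodes von Willebrand factor, the adhesive protein of platelets and endothelium. It had 0, 2 and 0 reads in the CTR line, 0, 4 and 2 reads in the AE line, and 4, 0 and 5 reads in the EG line. Its highest level was 0.0294 FPKM, and the uninduced EG library was already over the floor. The ratio of 48 h to 0 h in the EG line was 1.41 (0.303 to 7.1). Of 8 endothelial markers, CDH5 and KDR were at 0 in all 9 libraries, and PECAM1, which myeloid cells also carry, had 13.6 to 28.2 FPKM. EGFL7 and ESAM of the same list were also measured in all 9 libraries, at 5.04 to 11.9 FPKM and 1.08 to 2.76 FPKM.

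THBS1 (ENSG00000137801, chr15:39581079-39599466) encodes thrombospondin 1, a large adhesive glycoprotein of alpha granules that monocytes and many other cells can also make. It was the marker with the clearest difference after induction, and the difference lay in the AE line. THBS1 had 0.0134, 0.0505 and 0.0497 FPKM in the CTR line, from 2, 7 and 7 reads. It had 0.0263, 0.241 and 0.474 FPKM in the AE line, from 4, 34 and 66 reads. In the EG line it had 0.0237, 0.0366 and 0.0401 FPKM, from 4, 6 and 6 reads. The uninduced lines lay close together, and both induced AE libraries were above all 7 other libraries. The share of all genes that separate these libraries in this way was not computed.

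The AE ratio to 0 h was 9.13 at 12 h (3.26 to 35.4) and 18 at 48 h (6.7 to 67.9), larger on the log2(FPKM + 0.01) scale than the change of 99.7% of 14067 genes and 98.7% of 14326 genes. THBS1 met the limit of 20 reads over both libraries only through the induced AE libraries, so its call and its rank describe a gene that entered through its high values, and it was not among the genes tested in the CTR and EG lines. From 12 to 48 h it was 1.97 (1.28 to 3.07). The CTR line showed 3.7 at 48 h (0.704 to 36.5) and the EG line 1.69 (0.401 to 8.15), both with 1 inside the interval. Set against the CTR library of the same time, the AE line held 4.76 times the THBS1 reads at 12 h (2.08 to 12.7) and 9.54 times at 48 h (4.38 to 24.6), where 13.4% of genes were more than 2-fold higher. The EG line held 0.0846 times the AE value at 48 h (0.03 to 0.194). With the CTR change subtracted, the log2 change in the AE line was 1.42 at 12 h and 2.39 at 48 h. Even so, the level stayed low: at its highest, 34.8% of the genes above 0 in that library had a lower FPKM than THBS1. Exons of FSIP1 and THBS1-AS1 on the other strand overlap 7.58% of the THBS1 exon bases.

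The promoter windows of RefSeq, on GRCh38.p14, were read for 4 of the 9 markers (ITGA2B, GP1BB, GP9 and THBS1). Below are the 250 bases before the start of THBS1, the marker that differed most after induction, and before a start of GP9, a megakaryocyte gene that stayed at 0. The start listed for GP9 lies inside the outer limits of the gene given above, so this window is not the sequence before its outermost start. Capitals mark matches, on either strand, to TGTGGT (the core bound by RUNX proteins), AGGAAG (a core bound by ETS proteins) and GATAA (bound by GATA proteins). No match to TGGGGGGT, a core of GLIS sites, lay in these windows.
THBS1, chr15:39580829-39581078, plus strand: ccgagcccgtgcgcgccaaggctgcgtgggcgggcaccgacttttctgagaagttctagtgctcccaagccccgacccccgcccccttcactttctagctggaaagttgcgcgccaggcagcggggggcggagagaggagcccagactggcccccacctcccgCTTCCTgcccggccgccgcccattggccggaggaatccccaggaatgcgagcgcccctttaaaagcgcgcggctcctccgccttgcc
GP9, chr3:129060529-129060778, plus strand: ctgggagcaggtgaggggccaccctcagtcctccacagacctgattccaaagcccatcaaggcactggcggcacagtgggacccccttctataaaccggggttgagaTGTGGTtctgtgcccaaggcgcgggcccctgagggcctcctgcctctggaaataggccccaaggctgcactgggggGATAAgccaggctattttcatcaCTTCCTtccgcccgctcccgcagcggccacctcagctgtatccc
The THBS1 window held 1 match to AGGAAG, read on the other strand 87 to 82 bases before the start, and none to the other motifs. The GP9 window held 1 match to each of the RUNX, ETS and GATA motifs. The GP1BB window held 1 match each to the RUNX and GATA motifs, and the ITGA2B window held none. Of 35116 promoter windows of the same length, 11% held the RUNX motif, 28.7% the ETS motif, 20.4% the GATA motif and 1.33% the GLIS motif. A match is a run of letters and not a measured binding site.

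A marker was said to appear when it had at most 3 reads at 0 h and more than 3 later. In the CTR line THBS1 appeared at 12 and at 48 h, from 2 reads to 7, beside 3.87% and 3.66% of all genes at or below the floor at 0 h. In the AE line ITGA2B and VWF appeared at 12 h, beside 3.67% of genes, and ITGA2B alone at 48 h, beside 5.49%. In the EG line 0 of the 5 markers at or below the floor appeared at 12 h, beside 3.31% of genes, and 0 at 48 h, beside 4.27%. With shares this low, 0 of 5 is not read as a result about the markers. These 5, and the 7 markers tested in the CTR and AE lines, include GP1BB, whose 0 carries no limit and which could hardly appear. Markers also dropped to 3 reads or fewer: ITGA2B in the CTR line at 12 h, beside 5.96% of genes, and ITGA2B and VWF in the EG line at 12 h, beside 6.36%. The count of 0 in the EG line at 48 h rests on the 3 reads of ITGB3. At the annotated length of ITGB3 it would be 1, and the AE count at 48 h would be 2. Each marker that appeared by the recovered reads had at most 9 reads.

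The genes around these markers in the platelet programme were set beside them. Of the 12 receptor partners and ligand receptors, 7 had a mean of at least 1 FPKM in every line at 48 h, and none of these was past 2-fold. An eighth, CD36 (ENSG00000135218), a receptor for thrombospondin 1 on platelets and monocytes, met this limit in the AE line only, through its value at 48 h, and was called higher there, beside 17.3% of all genes. CD36 had 0.166, 0.947 and 6.72 FPKM in the AE line. In the CTR line CD36 had 0.0735, 0.103 and 0.173 FPKM, and in the EG line 0.354, 0.699 and 0.579 FPKM. CD36 and THBS1 thus stood highest in the same AE library, by 5.26 and 3.73 on the log2 scale over 0 h. Of the 13 other megakaryocyte receptors, F2RL3, a thrombin receptor, was past 2-fold higher in the CTR line at 48 h (1.11 to 3.16 FPKM). It was 1 of 3 tested, beside 8% of all genes higher, and no gene of this list was called in the AE or EG line. In the AE line F2RL3 had 1.03, 0.583 and 0.158 FPKM, from 57, 30 and 8 reads, a log2 difference of -2.63 at 48 h with a mean below 1 FPKM, and in the EG line it had 0.374, 0.604 and 0.55 FPKM.

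The other alpha granule genes did not move one way. In the AE line at 48 h, PDGFA and PDGFB, which encode platelet-derived growth factor chains, were higher (1.5 to 4.16 FPKM and 0.347 to 1.74 FPKM). CLU and SRGN were lower (22.9 to 6.17 FPKM and 2190 to 214 FPKM). So 2 were higher and 2 lower of 5 tested, beside 17.3% of all genes higher and 11.3% lower. PDGFB met the limit of 1 FPKM in the AE line only, through its value at 48 h, and in the CTR line it had 0.0154, 0.149 and 0.146 FPKM. SRGN, the granule proteoglycan of most blood cells, was also lower in the EG line (2090 to 598 FPKM). It was 1 of 4 tested, beside 2.54% of all genes lower, and no gene of this list was called in the CTR line. PPBP, a platelet chemokine gene next to PF4, was at 0 in all 9 libraries, as were PF4V1, MMRN1 and F13A1. Of the genes of platelet formation, NBEAL2 (25 to 9.33 FPKM), needed for alpha granules, and PRKAR2B (4.57 to 2.2 FPKM) were lower in the AE line at 48 h. They were 2 of 4 tested, beside 11.3% of all genes lower, and none was called at 48 h in the CTR or EG line. In the CTR line RAB27B of the same list had 5.65, 5.42 and 5.59 FPKM, and in the AE line 3.68, 8.3 and 6.18 FPKM. It was called higher in the AE line at 12 h, beside 6.57% of all genes. In the EG line it had 12.5, 13.9 and 19.3 FPKM, more than 2-fold above the CTR line at 48 h and already at 0 h. Of all genes, 4.15% and 3.42% were called higher in these 2 comparisons.

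Of the megakaryocyte transcription factors, GATA1 had at most 0.0433 FPKM and was at 0 in every AE and EG library. NFE2, a factor of platelet release, had 6.37, 5.96 and 3.85 FPKM in the CTR line, 9.57, 2.14 and 0.0556 FPKM in the AE line, and 8.51, 2.2 and 0.802 FPKM in the EG line. It was the 1 gene of 2 tested that passed 2-fold, in both fusion lines and downward, and FLI1 (11.9 to 19.9 FPKM) was not called. At 48 h 11.3% of all genes were called lower in the AE line and 2.54% in the EG line. The list of other genes known from ETO2-GLIS2 leukaemia was not sorted by whether a gene is high or low there. In it CD38, a surface enzyme, went from 2.17 to 8.91 FPKM in the EG line and from 1.78 to 3.75 FPKM in the CTR line. In the AE line CD38 went from 2.38 to 0.173 FPKM. The higher CD38 value in the EG line is therefore not read as a leukaemia marker appearing. At 48 h 10.8% of all genes were called higher in the EG line and 8% in the CTR line. No other gene of that list was called at 48 h, and BMP4 was at 0 throughout. The median log2 change of the tested genes at 48 h in the CTR, AE and EG lines was 0.43, 0.45 and 0.31 for the receptor partners, -0.21, -0.33 and -0.56 for the megakaryocyte receptors, 0.10, -0.27 and 0.03 for the alpha granule genes, and -0.01, -0.82 and 0.34 for the genes of platelet formation. These lists had 2 to 8 genes tested, and the medians of all genes were the 0.16, 0.22 and 0.16 given above.

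**Figure D3:**
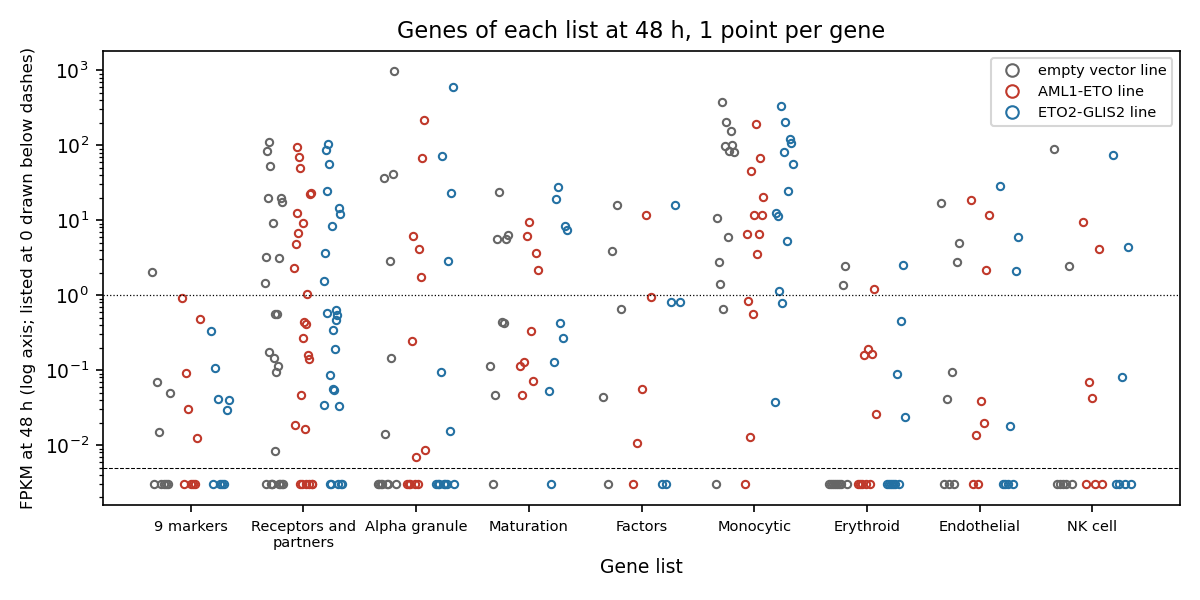
FPKM at 48 h (log axis) of each gene of the marker set and of lists for platelet, megakaryocyte and other cell types in the 3 lines, 1 point per gene; genes listed at 0 are drawn below the dashed line, and the dotted line is 1 FPKM. Most genes of the monocytic list lie above 1 FPKM, and of the 9 markers 1 value, NCAM1 in the empty vector line, does.

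The levels of other cell types moved beside these values. The monocytic list summed to 1130 to 1940 FPKM in the CTR line, 366 to 3060 FPKM in the AE line and 959 to 2670 FPKM in the EG line. At 48 h, 6 of 9 tested genes of this list were past 2-fold lower in the AE line, with 0 higher. Among the lower were LYZ, which encodes lysozyme (970 to 45.1 FPKM), and CEBPA, a myeloid transcription factor (98.5 to 6.62 FPKM). In the EG line 5 of 10 were lower and 2 higher, and in the CTR line 2 of 10 lower and 1 higher. The 2 higher in the EG line were the surface markers CD33 (6.16 to 12.4 FPKM) and ITGAM (2.23 to 11.5 FPKM). The 5 lower there were LYZ, CEBPA, ELANE, AZU1 and PRTN3. Some of these calls were shared with the CTR line. Its 1 higher gene was ITGAM (1.17 to 2.78 FPKM), and its 2 lower genes were ELANE (428 to 157 FPKM) and PRTN3 (469 to 81 FPKM). Of all genes, 11.3% were called lower and 17.3% higher in the AE line. The shares were 2.54% lower and 10.8% higher in the EG line, and 2.99% lower and 8% higher in the CTR line. Of 10 erythroid genes, HBB, HBG1 and HBG2 were at 0 in all 9 libraries, and EPOR was lower in the AE line (2.8 to 1.2 FPKM). The 4 platelet receptor markers summed to 0.0116 to 0.0832 FPKM in the CTR line, 0.0212 to 0.122 FPKM in the AE line and 0.0422 to 0.149 FPKM in the EG line, and the ranges of the lines overlapped. The part of these other changes in the THBS1 and NCAM1 values was not tested.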

How the data were processed

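RNA-seq of 9 libraries from 3 U937 lines was analysed, 1 library per condition, grouped by their labels. The markers and gene lists were chosen with earlier results of these data known. Per the submitters' notes and the methods, the authors aligned reads to hg38 with HISAT2 (2.0.5), handled them with SAMtools (1.7), counted them on genes with HTSeq (0.9.1) at default settings and deposited FPKM. The annotation version and the exon lengths are not given in the sources used here.

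FPKM were compared as log2(FPKM + 0.01). All values of a gene are multiples of what 1 read is worth: 18748 of 18749 genes with at most 1000 reads gave whole reads. On simulated data 99.8% of 10274 such genes were returned exactly. The exon length was itself chosen so that reads came out whole, and the simulation took the recovered lengths as true. Of 30032 recovered genes, 75.5% had the exon length of the annotation used here. Recovered reads served for intervals, floors and filters. Python (3.11.15), numpy (2.4.6), pandas (2.3.3), scipy (1.17.1), matplotlib (3.10.9) and bedtools (2.31.1) were used. Calls were past 2-fold with a mean of at least 1 FPKM or at least 20 reads over both libraries. Named besides the markers are, per list, up to 4 genes called at 48 h in any line with the largest change, plus GP1BA, PPBP, GATA1, PECAM1 and NKG7, and the 3 genes most like a marker with at least 200 reads. Other genes were named after their values were seen, mainly those at 0 or read beside a marker. Coordinates are from RefSeq on GRCh38.p14, and exon overlaps from a GENCODE annotation on GRCh37. Alternatives covered the filter, pseudocount, scaling, reference library, floor and fold threshold. Some genes of the lists are not reported here. ChIP-seq was not analysed here.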

Additional observations from a re-analysis of the deposited data

Results flagged for a closer look

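Considered here were the 9 markers and, of each other list, up to 4 genes called past 2-fold at 48 h in any line, those with the largest change. For 9 of these list genes, and for none of the markers, a line was higher than its 0 h library at both later times while another line was lower at both. With 1 library per condition these differences were not tested. Each value below is a difference between lines in the log2 change at 48 h. CD38 differed by -5.74 between the AE and EG lines and by -4.79 between the AE and CTR lines. F2RL3 differed by -3.18 and -4.14 in the same order, NKG7 by -2.83 and -3.29, EPOR by -1.43 and -1.62, and CBFA2T3 by -6.14 and -4.85. Of the CBFA2T3 values, only the -6.14 includes the transcript of the construct in the EG line. Both include a lower CBFA2T3 level in the AE line, 5.26 FPKM at 0 h and 0.22 FPKM at 48 h. GLIS2, also part of that construct, differed by -3.06 between the AE and EG lines and by 2.24 between the EG and CTR lines. CEBPA differed by -4.34 between the AE and CTR lines and by -1.45 between the EG and CTR lines. NBEAL2 differed by -2.08 and KLRF1, a natural killer receptor gene, by 1.09 between the AE and EG lines.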

How the results depend on the processing

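No paired analysis was possible because each condition had 1 library, and for the same reason no replicate could be left out. No marker name matched more than 1 identifier, so summing over identifiers changed nothing and was not run. The count of markers past 2-fold, 0 for each line, time and direction, stayed at 0 with a pseudocount of 0.1 or 1, median-ratio rescaling, a 1.5-fold threshold or the CTR change subtracted, which shows nothing for the fusion lines, where no marker met the limit of 1 FPKM. With a mean of at least 0.1 FPKM, and likewise with at least 20 reads, it was 1 higher in the AE line at 12 h, 2 higher in the AE line at 48 h and 1 higher in the EG line at 48 h. With no filter it was 2 higher and 1 lower in the CTR line at 12 h, 2 higher there at 48 h, 4 and 5 higher in the AE line at 12 and 48 h, 1 higher and 2 lower in the EG line at 12 h, and 2 higher there at 48 h, where most of the added calls rest on under 10 reads in each library. Against the CTR library at 0 h, 1 marker, NCAM1, was lower in the AE line at 12 h, and the NCAM1 change at 48 h reversed to -0.77 (AE) and -2.22 (EG). The NCAM1 difference before induction went to -0.84 (AE, pseudocount 1) and to -2.73 and -1.16 (EG, pseudocounts 0.1 and 1), since a pseudocount near the level shrinks it. With a floor of 10 reads, 1 marker was over it in every library in which the count moved, except 2 in the AE line at 12 h, and with 0.1 FPKM it was 1 in the CTR libraries and at 0 h in the AE line and 0 and 12 h in the EG line, 3 and 2 in the AE line at 12 and 48 h, and 2 in the EG line at 48 h. With a floor of 10 reads, 0 markers appeared in the CTR line at either time and 1 in the AE line at 12 and at 48 h, where THBS1 took the place of the weaker markers. With ITGB3 at its annotated exon length, an alternative chosen after seeing the data, 2 markers appeared in the AE line and 1 in the EG line at 48 h. Scaling reads to the smallest library changed no count of appearing markers. Depth limits every statement on ITGA2B, VWF and ITGB3, whose values rest on at most 10 reads a library.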
